A study of Mus musculus with 6 samples.

Results

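The Hox genes of satellite cells (stem cells of the mouse's skeletal muscles) were read out on single-colour Agilent arrays. Members were all non-control probes whose gene name on the array was Hoxa, Hoxb, Hoxc or Hoxd followed by a number. The rule found 43 of the 55681 non-control probes of the array, on 61 spots, and they covered 39 genes of the 36406 names on the array: 11 of the Hoxa, 10 of the Hoxb, 9 of the Hoxc and 9 of the Hoxd cluster. Satellite cells came from male C57BL/6 mice, from 3 Adult samples, all of 6 months, and 3 Young samples, of 3, 2 and 3 months for replicates 1, 2 and 3. All samples were sorted by flow cytometry as positive for integrin alpha7 and CD34 and negative for CD31, CD45, CD11b and Sca1, and their RNA was amplified by a whole transcriptome method for very small cell numbers and labelled with Cy3. The labels call the samples biological replicates. The sources used here name neither the muscles taken nor the number of mice in a sample, and both bear on genes whose activity follows body position.

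Hox proteins are homeodomain transcription factors that give cells their position along the head-to-tail axis and along the limb. Mammals carry 4 Hox clusters, and within a cluster the genes lie in the order in which they are used: low paralogue numbers act toward the head, high numbers toward the tail and the far end of the limb. Many adult cells of mesodermal origin keep a Hox pattern that reflects where they came from, and satellite cells of different muscles are known to differ in Hox expression. Hox proteins bind DNA with cofactors of the TALE class (Pbx, Meis and Pknox), their genes respond to retinoic acid, and Trithorax-type and Polycomb-type complexes hold them on or off.

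A few of the probes lay in the parts that define a Hox protein, and 2 are shown because they place the measured stretch in the coding sequence. Capitals in the probe of Hoxc11 mark, on the probe's own strand, the codons for the conserved tryptophan, phenylalanine, glutamine and asparagine of the DNA-reading helix of the homeodomain. Capitals in the Hoxa6 probe mark the codons of the hexapeptide, the short motif by which Hox proteins hold Pbx. Translated in the 3 frames of its own strand, 2 of the 43 Hox probes held the run of homeodomain residues, as did 0.0198% of all probes, and 1 held the hexapeptide core, as did 0.00359% of all probes. Coordinates are those of the array files (mm9): chr15:102787022-102787081, plus strand, for Hoxc11; chr6:52158194-52158253, minus strand, for Hoxa6.
Hoxc11 probe: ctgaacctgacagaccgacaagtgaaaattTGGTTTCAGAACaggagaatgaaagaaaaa
Hoxa6 probe: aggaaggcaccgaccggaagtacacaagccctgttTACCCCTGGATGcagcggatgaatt
In spite of the shared protein family, the probes themselves were distinct. Among the 903 pairs of Hox probes the longest run of bases that any pair shared was 11, and the most alike pair matched at 29 positions when laid against each other without gaps.

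Many Hox genes were detected in satellite cells of both ages. On all 6 arrays 26 of the 39 genes, each taken by its brightest probe, were well above background, which is the scanner software's own call that a spot stands clear of its surroundings. So were 38120 of the 55681 non-control probes, and the Hox share was close to that of the whole array. Hoxb1 and Hoxb13, the outermost members of their cluster, were on none of the 6. The Adult arrays had 33, 34 and 34 of the 39 genes well above background and the Young arrays 27, 32 and 30. These counts did not overlap, and the two-sided exact permutation test gave p = 0.1, the smallest that 3 arrays against 3 can give. Counted over all 43 Hox probes, the Adult arrays had 35, 37 and 37 and the Young arrays 29, 35 and 32. Those counts meet at 35, and the same permutation test gave p = 0.2. Over all probes the mean share well above background was 88.2% on Adult and 78.1% on Young arrays, so detection was higher in Adult for the whole array and not for Hox probes alone.

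By cluster, detection was nearly complete for Hoxa, with 10 of 11 genes well above background on all 6 arrays. Hoxb gave 7, 8 and 7 of 10 genes on Adult and 6, 8 and 7 on Young arrays. In the Hoxc cluster 7, 7 and 9 of 9 genes were well above background on Adult and 7, 8 and 7 on Young arrays. The Hoxd cluster had 8, 8 and 7 of 9 genes on Adult against 4, 5 and 6 on Young arrays, which did not overlap (exact permutation p = 0.1, two-sided). Genes of paralogue number 2, 4, 5, 6, 9 and 11 were well above background on all 6 arrays in every cluster that has them, whereas the ends of the clusters were patchy: none of the 2 genes of number 12 reached all 6, and of the 4 genes of number 13 only Hoxa13 did.

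**Figure D1:**
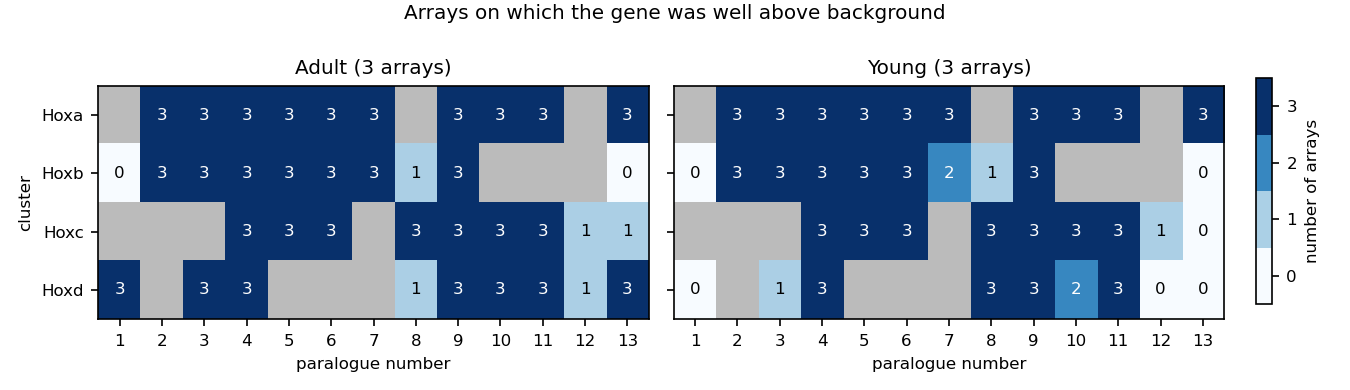
Number of arrays, of 3 in each group, on which the brightest probe of each Hox gene was well above background, by cluster (rows) and paralogue number (columns), for Adult (left) and Young (right); grey marks a number that the cluster lacks or that is not shown. Every gene of number 2, 4, 5, 6, 9 and 11 stands at 3 in both groups, and Hoxd1 and Hoxd13 stand at 3 in Adult and 0 in Young.

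For the comparison of ages, each array's log2 processed signal was reduced by that array's 75th percentile (here called the log2 scaled signal), and Adult was set against Young with limma over the 48375 probes that were well above background on at least 3 arrays. Such a difference can be read within a probe, while levels of different probes cannot be ranked. Of the 33 Hox genes tested, 3 were higher in Adult at an adjusted p under 0.05 and 0 were lower, with 11 at an unadjusted p under 0.05. Over all probes tested 17.1% were higher and 6.40% were lower. The median Hox difference was 0.09 (log2), against 0.29 over all probes tested, with 17 genes positive and 16 negative. Values of the 2 groups did not overlap for 8 genes that were higher and 5 that were lower in Adult, where over all probes 32.1% and 20.5%, together 52.6%, did not overlap. How all probes split depended on the scaling: 8251 were higher and 3094 lower as reported, against 3272 and 3796 with quantile normalization, 4815 and 12210 after subtracting each array's median, 10307 and 2012 with the percentile taken over probes well above background on all 6 arrays, 3486 and 2819 with cyclic loess and 5636 and 6063 in the deposited log2 values. The medians of all probes were then -0.12, -0.25, 0.43, -0.02 and -0.05. Among the 26 genes well above background on all 6 arrays there were 0 calls, 6 at an unadjusted p under 0.05 and a median of -0.21, against 0.03 over the 38120 such probes.

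**Figure D2:**
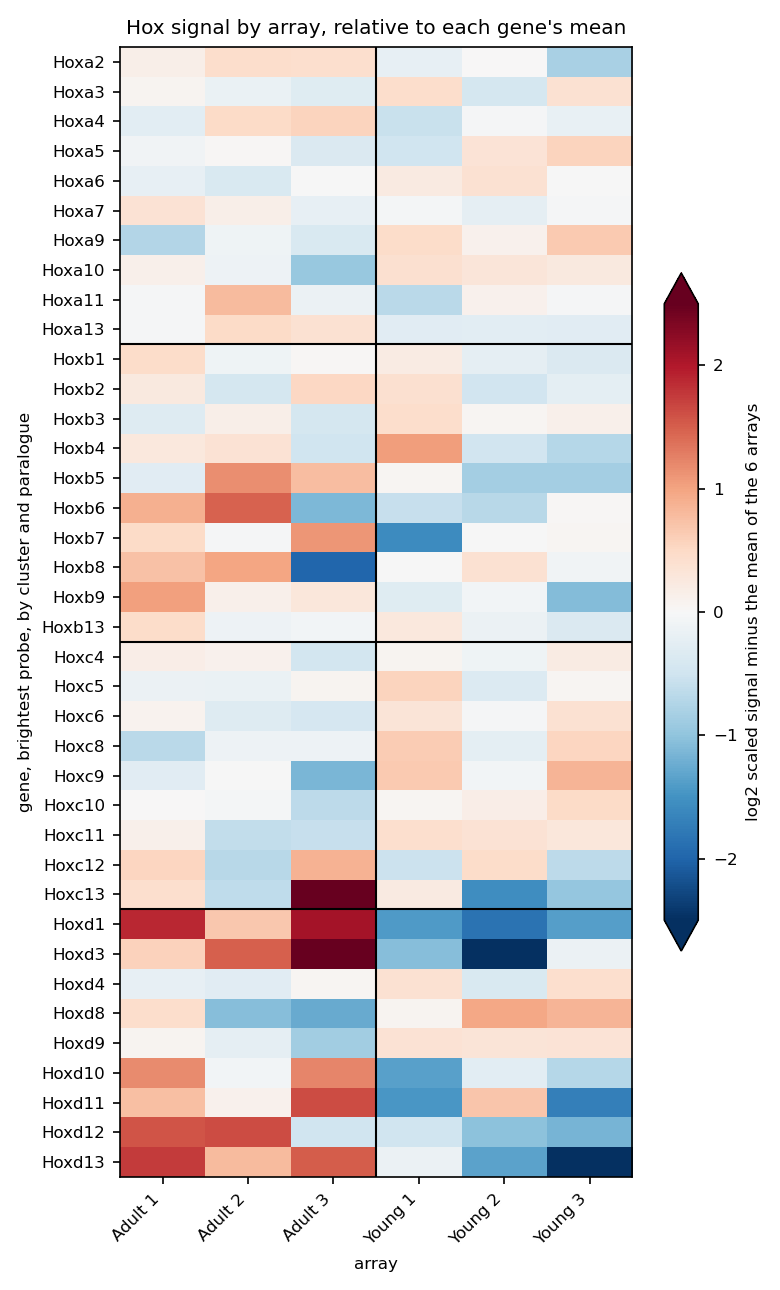
Log2 scaled signal of the brightest probe of 38 of the Hox genes (rows) on each array (columns, Adult left of Young), minus that gene's own mean over the 6 arrays; red is above and blue below the mean, and black lines part the clusters and the groups. Strong contrasts between the groups lie at both ends of the Hoxd cluster.

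Direction followed signal level on the whole array, and this applies to every gene described here. The tested probes were split by mean signal into 4 level groups of equal size, group 1 being the dimmest. In group 1 the median difference was 1.38, with 27.3% of probes higher and 0.761% lower in Adult, and in group 2 it was 0.56, with 19.7% higher and 2.29% lower. In group 3 the median was -0.01, with 12.7% higher and 7.35% lower, and in group 4 it was -0.33, with 8.52% higher and 15.2% lower. Hox genes ran along the same course, with medians of 1.33 (1.07 with Hoxd1 and Hoxd13 at their lower bounds) for the 12 tested in group 1, 0.21 for the 5 in group 2, -0.34 for the 8 in group 3 and -0.45 for the 8 in group 4. All 3 Hox genes past the threshold were in group 1, where 3 of 12 passed; groups 2, 3 and 4 had 0 calls. The part of signal level in these differences was not tested.

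**Figure D3:**
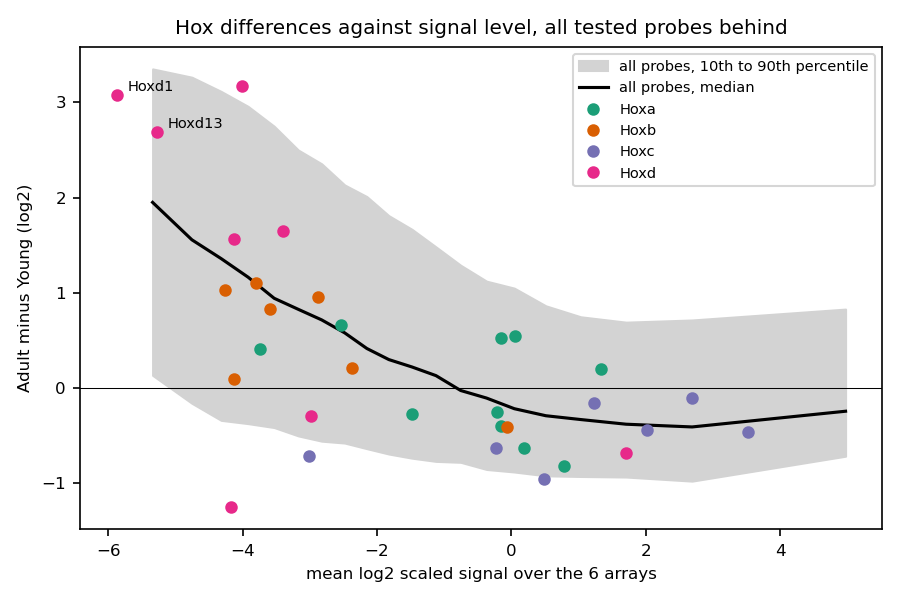
Adult minus Young difference (log2) against the mean log2 scaled signal over the 6 arrays; dots are 32 of the 33 Hox genes tested, coloured by cluster, the line is the median and the grey band the 10th to 90th percentile of all tested probes in 20 bins of equal size. Dim probes lie above 0 and bright probes mostly below it, and the 2 genes named in the plot sit at the dim end.

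Hoxd1, the head-end gene of its cluster, cleared the background on 3 of 3 Adult and 0 of 3 Young arrays. Its probe (chr2:74603000-74603059, plus strand) read -4.00, -5.21 and -3.79 on Adult, against -7.28, -7.71 and -7.24 on Young arrays. The Young values were at background and so are only an upper limit, which makes Hoxd1 at least 1.94-fold higher in Adult; the bound sets the Adult mean against the lowest signal well above background on each Young array. The probe entered the test through the Adult arrays alone, so the fit's adjusted p of 0.0183 (n = 3 each) was taken against Young values at background and is no independent support for the difference. Hoxd1 passed in 13 of 18 alternatives that tested it, of which 4 left out a sample. The fitted size depended on the background correction: it was 3.08 (log2) as reported, 0.74 with normexp and 0.36 in the deposited log2 values. Both alternatives lie below the bound, which therefore holds for the processed signals only.

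Hoxd13, at the opposite end of the cluster and known for patterning digits, showed the same contrast. Its probe (chr2:74509248-74509307, plus strand) read -3.54, -4.50 and -3.77 on Adult, against -5.42, -6.61 and -7.84 on Young arrays, with no overlap. It too cleared the background on 3 of 3 Adult and 0 of 3 Young arrays, so it was at least 2.55-fold higher in Adult in the processed signals. It likewise entered the test through the Adult arrays alone (adjusted p = 0.0367). The fitted difference was 2.69 as reported, 0.77 with normexp and 0.34 in the deposited log2 values, so the bound did not hold in those 2. Hoxd13 passed in 9 of 18 alternatives. Without Adult replicate 1 or Adult replicate 3 neither Hoxd1 nor Hoxd13 passed, and the count over all probes was 528 and 388. Without Adult replicate 2 or Young replicate 3 Hoxd1 passed and Hoxd13 did not, with 776 and 2457 probes in all. Both passed without Young replicate 1, with 1309 probes in all, and without Young replicate 2 Hoxd1 passed and Hoxd13 did not, with 10337.

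The rest of the Hoxd cluster split by gene. Hoxd3, next to Hoxd1, was well above background on 3 Adult and 1 Young arrays and missed the threshold: it read -3.43, -2.52 and -1.35 on Adult, against -5.08, -7.56 and -4.16 on Young arrays (3.17 ± 0.97, SE, n = 3 each; adjusted p = 0.059). Hoxd10, a posterior gene active in the limb, was well above background on 3 Adult and 2 Young arrays. It read -2.95, -4.19 and -2.91 on Adult, against -5.49, -4.40 and -4.84 on Young arrays (1.56 ± 0.46, adjusted p = 0.054). Neither gene overlapped between the groups, but their Young values at background are upper limits. Over all settings the difference ran from 0.70 to 3.89 for Hoxd3 and from 0.20 to 1.98 for Hoxd10. Hoxd11, which takes part in forearm patterning, read -2.65, -3.29 and -1.77 on Adult, against -4.86, -2.71 and -5.11 on Young arrays, where Young replicate 2, the 2-month sample, reached the Adult range (1.65 ± 0.73, adjusted p = 0.131). Without that sample the difference was 2.41 and passed (adjusted p = 0.0261 in limma). Of 19 alternatives this was the only 1 in which Hoxd11 passed, and it left out the Young array nearest to Adult.

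Negative differences in the same cluster came from Hoxd4, Hoxd8 and Hoxd9, which lie between those genes. Hoxd9 read 1.78, 1.49 and 0.85 on Adult, against 2.08, 2.03 and 2.05 on Young arrays. Its groups did not overlap, though the difference of -0.68 ± 0.28 did not pass (adjusted p = 0.11). Hoxd4, a gene of the hindbrain and neck region, read -3.20, -3.27 and -2.94 on Adult, against -2.60, -3.36 and -2.57 on Young arrays, which overlap (-0.29 ± 0.28). Hoxd8 was well above background on 1 Adult and 3 Young arrays, with a difference of -1.25 ± 0.52 (adjusted p = 0.113). Over the 8 tested Hoxd genes the median was 1.61 (1.15 with Hoxd1 and Hoxd13 at their bounds), with 5 positive and 3 negative, but over the 3 of them well above background on all 6 arrays it was -0.29.

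**Figure D4:**
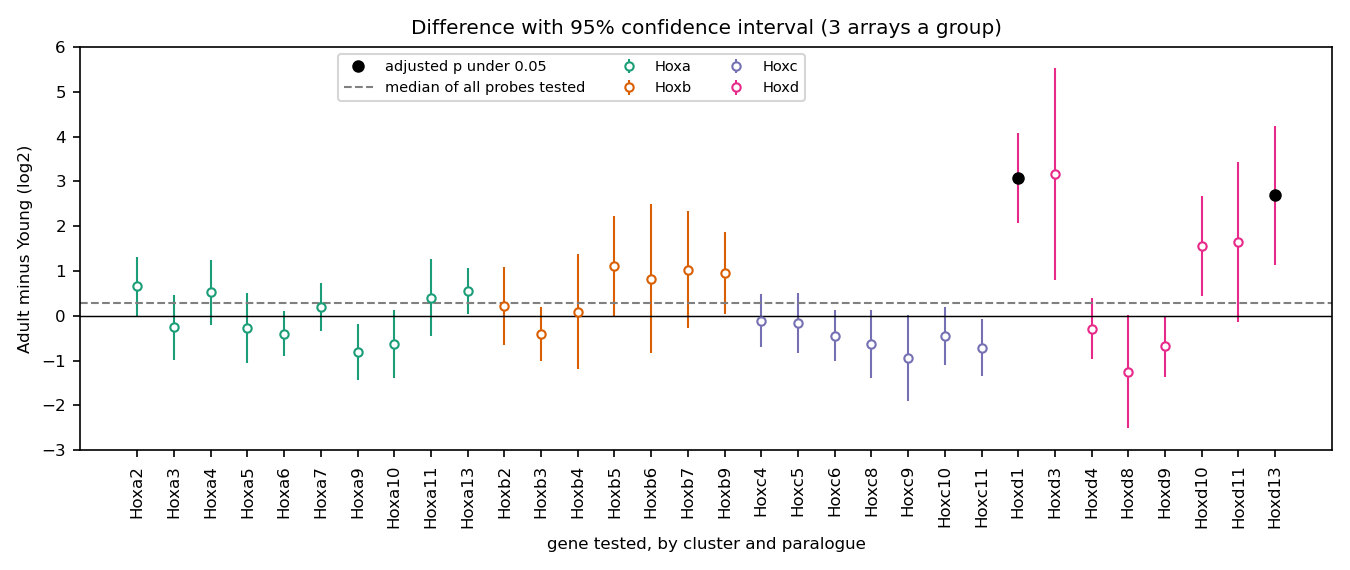
Adult minus Young difference (log2) with its 95% confidence interval for 32 of the 33 Hox genes tested, in cluster and paralogue order (3 arrays a group); filled black points are past the threshold and the dashed line is the median of all probes tested. All 7 Hoxc points lie below 0, and the Hoxd points lie on both sides; the Young values of Hoxd1 and Hoxd13 were at background.

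The promoters of Hoxd1 and Hoxd13 are shown, with that of Hoxd9 for a member of the same cluster with a negative difference, because the called genes stand at opposite ends of it. Each is the 250 bases before the gene's start from RefSeq (GRCm38.p6, plus strand), with CG dinucleotides in capitals: chr2:74762730-74762979 for Hoxd1, chr2:74667975-74668224 for Hoxd13 and chr2:74697513-74697762 for Hoxd9.
Hoxd1 promoter: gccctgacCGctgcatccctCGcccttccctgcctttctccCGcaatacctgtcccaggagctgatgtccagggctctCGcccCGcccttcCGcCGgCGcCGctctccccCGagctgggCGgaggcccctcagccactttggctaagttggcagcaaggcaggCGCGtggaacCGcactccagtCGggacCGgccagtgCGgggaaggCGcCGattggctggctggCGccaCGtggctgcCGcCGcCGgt
Hoxd13 promoter: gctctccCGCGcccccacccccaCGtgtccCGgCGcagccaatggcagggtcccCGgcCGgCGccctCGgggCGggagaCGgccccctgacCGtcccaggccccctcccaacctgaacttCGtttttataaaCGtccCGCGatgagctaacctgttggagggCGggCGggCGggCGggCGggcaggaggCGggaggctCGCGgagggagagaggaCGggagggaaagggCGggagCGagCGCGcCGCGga
Hoxd9 promoter: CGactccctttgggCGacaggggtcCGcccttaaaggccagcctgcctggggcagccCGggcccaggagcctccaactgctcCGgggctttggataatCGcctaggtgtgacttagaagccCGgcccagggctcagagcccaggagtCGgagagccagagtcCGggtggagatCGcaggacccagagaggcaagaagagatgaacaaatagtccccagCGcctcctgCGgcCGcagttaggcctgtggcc
The Hoxd1 window held 24 CG dinucleotides, that of Hoxd13 held 31 and that of Hoxd9 held 13. Over the 24 windows of the 22 Hox genes in the table the median was 12.5 (2 to 35), and over all 32851 windows it was 6. TATAAA, searched on both strands, was found in 4 of the 24 Hox windows, Hoxd13 among them and Hoxd1 and Hoxd9 not, and in 12.4% of all windows. The Meis and Pknox motif TGACAG stood in 2 Hox windows (Hoxa2 and Hoxa3) and 15.9% of all, and the Pbx and Hox motif TGATNNAT in 4 (Hoxd11, Hoxa2, Hoxb8 and Hoxb1) and 7.68% of all. None of the promoters printed here holds either of those motifs.

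In the Hoxc cluster every gene tested had a negative difference, and 0 of 7 passed the threshold in limma (1 at an unadjusted p under 0.05). The median over the 7 genes was -0.46, with a range of -0.95 to -0.11. Hoxc10, which is active in the hindlimb and the lumbar region, read 3.54, 3.48 and 2.87 on Adult, against 3.57, 3.69 and 4.01 on Young arrays. Hoxc11, its neighbour on the tail side, read -2.87, -3.62 and -3.59 on Adult, against -2.59, -2.64 and -2.72 on Young arrays. Both were lower on every Adult array than on any Young array, by -0.46 ± 0.27 for Hoxc10 (adjusted p = 0.218) and -0.71 ± 0.26 for Hoxc11 (adjusted p = 0.0877). Hoxc11 lay in level group 2, where the median of all probes was 0.56. Hoxc8 lay in group 3, where that median was -0.01. Hoxc4, Hoxc5, Hoxc6, Hoxc9 and Hoxc10 lay in group 4, where it was -0.33 and 8290 of 12094 probes were negative.

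The other Hoxc genes overlapped between the groups. Hoxc9, a thoracic gene, read 0.20, 0.47 and -0.66 on Adult, against 1.13, 0.41 and 1.33 on Young arrays, and had the most negative difference of the cluster (-0.95 ± 0.39, adjusted p = 0.114). Hoxc8 read -0.91, -0.37 and -0.37 on Adult, against 0.41, -0.47 and 0.31 on Young arrays. In both genes Young replicate 2 was the Young array that fell in the Adult range. Hoxc6, active at forelimb and upper thoracic level, read 2.11, 1.70 and 1.60 on Adult, against 2.35, 1.99 and 2.40 on Young arrays. Hoxc5 read 1.08, 1.06 and 1.28 on Adult, against 1.77, 0.87 and 1.27 on Young arrays, and Hoxc4 read 2.86, 2.80 and 2.24 on Adult, against 2.76, 2.58 and 2.89 on Young arrays. The differences of these 2 genes, -0.16 ± 0.28 and -0.11 ± 0.24, were within their standard errors.

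The negative median of the Hoxc cluster held in all 19 alternatives, from -1.00 to -0.24 and relative to the median of all probes it ran from -0.87 to -0.16. Between 5 and 7 of its tested genes were negative. The alternatives are not 19 separate checks, since some cannot move a median. Trend and robust moderation and the replicate block, for example, left that of Hoxc at -0.46. The median was below 0 in 5 of the 19 alternatives for Hoxa, in 3 for Hoxb and in 1 for Hoxd. Within the row of the slide that held Adult replicate 1 with Young replicates 1 and 2 the Hoxc median was -0.24, and within the row that held the other arrays it was -0.75. Subtracting each array's median in place of its 75th percentile moved the median of all probes to -0.25, and with it 5 of the 7 Hoxc genes were called lower, where 25.2% of all probes were.

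HOTAIR, a long noncoding RNA read from the strand opposite to the Hoxc genes and known in human cells for its link to Polycomb complexes, lies on this array between the probes of Hoxc12 and Hoxc11 (lincRNA at chr15:102774492-102778161, mm9, minus strand). It is no member of the rule, and of the 12 listed noncoding RNAs of the clusters 3 were matched on the array and 2 were tested, of which HOTAIR passed. It had 5 probes, all well above background on all 6 arrays and all with negative differences, and 2 passed. Over all probes tested 6.40% were lower, and in level groups 2 and 3, where these probes lay, 2.29% and 7.35%. The 5 probes are listed for 1 RNA, so their shared sign is not 5 separate observations. Sequences of the 2 that passed are given to fix the stretches measured (chr15:102774511-102774570 and chr15:102774643-102774702).
HOTAIR probe at 102774511: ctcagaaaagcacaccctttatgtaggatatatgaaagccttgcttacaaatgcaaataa
HOTAIR probe at 102774643: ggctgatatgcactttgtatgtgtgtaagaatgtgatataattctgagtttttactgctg
The probe at 102774511 read -1.38, -0.73 and -1.00 on Adult, against -0.21, -0.04 and 0.06 on Young arrays (-0.97 ± 0.24, adjusted p = 0.0382). The probe at 102774643 read -2.69, -2.68 and -2.91 on Adult, against -1.89, -2.21 and -1.71 on Young arrays (-0.83 ± 0.22, adjusted p = 0.0428). Neither overlapped between the groups, and the other 3 probes had differences of -0.39, -0.66 and -0.71. The median of the probes was below 0 in all 19 alternatives, from -1.26 to -0.51, though some of these, such as the replicate block, cannot move it. Leaving out any sample other than Young replicate 2 left 0 of the 5 past the threshold. The labels do not say whether the labelled cDNA kept its strand, so the signals of HOTAIR, of the lincRNAs and of antisense RNAs cannot be assigned to a strand.

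**Figure D5:**
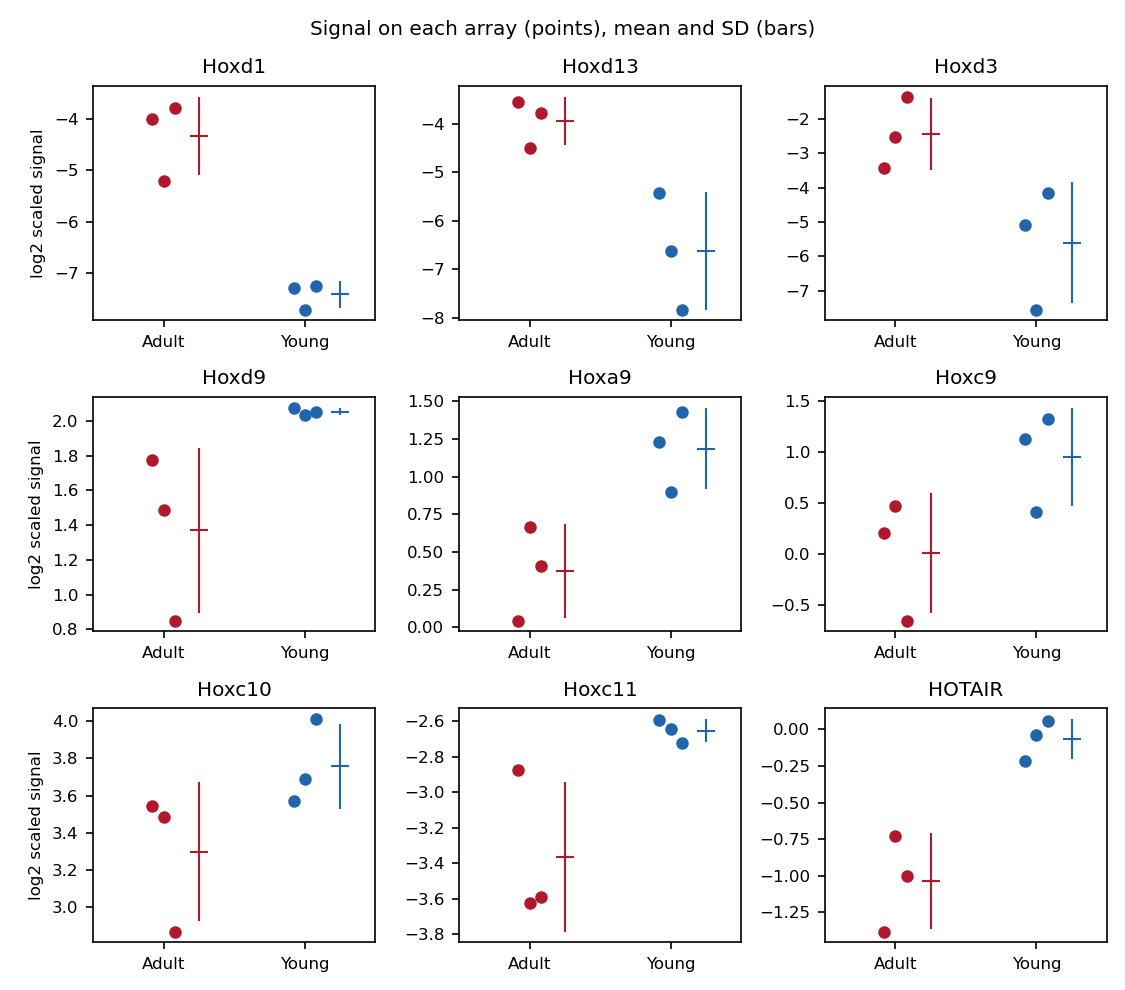
Log2 scaled signal on each array (points) with the mean and SD (bars) of Adult (red, left) and Young (blue, right) for 8 Hox genes and the HOTAIR probe at the lowest adjusted p; each panel has its own axis. Hoxd1, Hoxd13 and Hoxd3 are higher on every Adult array, and Hoxd9, Hoxa9, Hoxc10, Hoxc11 and HOTAIR lower.

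Of the 10 Hoxa genes well above background on all 6 arrays, 5 had positive and 5 negative differences. Toward the head, Hoxa2, which patterns the hindbrain and the second branchial arch, read -2.40, -2.10 and -2.12 on Adult, against -2.74, -2.52 and -3.34 on Young arrays. This was higher on every Adult array, but the difference of 0.66 ± 0.27 did not pass (adjusted p = 0.111). Hoxa3 read -0.15, -0.37 and -0.52 on Adult, against 0.22, -0.66 and 0.17 on Young arrays. Hoxa4 read -0.41, 0.34 and 0.40 on Adult, against -0.72, -0.19 and -0.33 on Young arrays. Both overlapped between the groups.

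In the middle of the cluster the groups overlapped. Hoxa5, known for its part in the lung and the neck, read -1.58, -1.45 and -1.84 on Adult, against -1.97, -1.14 and -0.93 on Young arrays. Hoxa6 read -0.36, -0.54 and -0.17 on Adult, against 0.07, 0.22 and -0.17 on Young arrays. Hoxa7 read 1.69, 1.47 and 1.12 on Adult, against 1.29, 1.10 and 1.30 on Young arrays. Their differences ran from -0.40 to 0.19, within 2 standard errors of 0.

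Toward the tail end Hoxa9, a gene of limb and blood stem cells that is known to act in aged satellite cells of the mouse, came closest to a lower call. Its brightest probe read 0.04, 0.67 and 0.41 on Adult, against 1.23, 0.90 and 1.43 on Young arrays, a difference of -0.81 ± 0.26 with no overlap (adjusted p = 0.0625). The dimmer Hoxa9 probe had -0.23 ± 0.22 (adjusted p = 0.437), so the probes differed in size though not in sign. Hoxa10 read 0.31, 0.06 and -0.76 on Adult, against 0.58, 0.48 and 0.42 on Young arrays, again without overlap (-0.63 ± 0.31, adjusted p = 0.168). Hoxa11, with Hoxd11 a gene of the forearm, read -3.77, -2.95 and -3.88 on Adult, against -4.42, -3.63 and -3.77 on Young arrays (0.41 ± 0.35). Hoxa13, of the hand and foot, read 0.02, 0.53 and 0.44 on Adult, against -0.22, -0.21 and -0.22 on Young arrays. The Adult arrays were all higher, by 0.55 ± 0.21 (adjusted p = 0.0966), and by 1.29 ± 0.38 at the dimmer Hoxa13 probe (adjusted p = 0.0556).

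In the Hoxb cluster 6 of the 7 tested genes had positive differences and 0 passed in limma (1 at an unadjusted p under 0.05); the median was 0.83. Hoxb4, Hoxb5, Hoxb6 and Hoxb7 lay in level group 1, where the median of all probes was 1.38. Hoxb2 and Hoxb9 lay in group 2, where it was 0.56, and Hoxb3 in group 3, where it was -0.01. These signs depended on the scaling: 1 gene was positive and 6 negative with cyclic loess, and 2 and 5 with quantile normalization. The deposited log2 values gave 3 positive and 4 negative. The Hoxb median was above 0 in 16 of the 19 alternatives. Hoxb9, a gene of the thoracic level, read -1.86, -2.76 and -2.59 on Adult, against -3.18, -2.95 and -3.97 on Young arrays, with no overlap (0.96 ± 0.38, adjusted p = 0.101). Hoxb5, a gene of the shoulder level, read -4.10, -2.63 and -3.03 on Adult, against -3.75, -4.66 and -4.66 on Young arrays (1.10 ± 0.46, adjusted p = 0.116). Hoxb6 read -2.71, -2.12 and -4.72 on Adult, against -4.17, -4.29 and -3.56 on Young arrays. In these 2 genes 1 Adult array, replicate 1 for Hoxb5 and replicate 3 for Hoxb6, lay in or below the Young range.

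Hoxb4, best known from blood stem cells, read -3.86, -3.76 and -4.63 on Adult, against -3.08, -4.61 and -4.84 on Young arrays. Hoxb2 read -2.13, -2.80 and -1.85 on Adult, against -1.97, -2.85 and -2.60 on Young arrays. Their differences were 0.09 ± 0.53 and 0.21 ± 0.36. Hoxb3 was the only tested gene of the cluster with a negative difference and read -0.39, 0.08 and -0.52 on Adult, against 0.37, -0.03 and 0.06 on Young arrays (-0.41 ± 0.24). The dimmer Hoxb3 probe was not well above background on any array. Hoxb7 was well above background on 3 Adult and 2 Young arrays (1.03 ± 0.53). Hoxb8, Hoxc12, Hoxc13 and Hoxd12 were each well above background on 1 or 2 arrays in all, and with Hoxb1 and Hoxb13 they were not tested.

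Between the Hoxb genes the array carries probes for other transcripts, most of them lincRNAs, long RNAs without a known protein. Of the 19 tested there, 14 of them lincRNA probes, 4 rose and 0 fell, against 17.1% and 6.40% of all probes; all 4 were lincRNA probes. A lincRNA at chr11:96173788-96174352 (mm9, plus strand), between the probes of Hoxb5 and Hoxb4, had both of its tested probes past the threshold. One read -0.06, 0.76 and 0.71 on Adult, against -0.95, -1.16 and -0.86 on Young arrays (1.46 ± 0.28, adjusted p = 0.028), and the other had 1.23 ± 0.26 (adjusted p = 0.0302). Another at chr11:96112907-96125798, between those of Hoxb13 and Hoxb9, had 2 of 3 past the threshold, by 0.96 ± 0.20 (adjusted p = 0.0309) and 1.76 ± 0.43 (adjusted p = 0.0389). The probe with 1.76 was well above background on 2 Adult and 1 Young arrays only. It lay in level group 1, where the median of all probes was 1.38 and 27.3% were higher. The 6 tested probes of the overlapping lincRNA at chr11:96111499-96126224, listed on both strands, did not pass (adjusted p from 0.0566 to 0.616), nor did the 3 of the one at chr11:96175764-96176029. The median over the tested probes of the RNAs at 96173788 and 96112907 was above 0 in all 19 alternatives, from 0.77 to 1.49 and from 0.02 to 1.89. Some of these alternatives, such as the replicate block, cannot move a median. The calls were less stable: of the 2 tested probes of the RNA at 96173788, 0 passed without Adult replicate 2, Adult replicate 3, Young replicate 1 or Young replicate 3 and 1 passed without Adult replicate 1. Of the 3 probes of the RNA at 96112907, 1 passed without Young replicate 2 and 0 without any other single sample. These lincRNAs were singled out after their values were seen. Of the probes inside the other clusters that are not Hox probes, 0 of 6 passed in Hoxa, 0 of 3 tested in Hoxd, and in Hoxc only the 2 of HOTAIR. Hoxa11os, annotated as the antisense RNA of Hoxa11, had -0.20 ± 0.31.

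The partners and regulators of Hox genes were read from lists. Of 9 TALE cofactors, all detected on all 6 arrays, 0 rose and 1 fell: Meis2 fell by 0.79 ± 0.22 (adjusted p = 0.0487), and the median was -0.29. Pbx4 had 1.70 ± 0.63 (adjusted p = 0.0903), Pbx2 -0.53 ± 0.20 (adjusted p = 0.0905) and Meis1 -0.72 ± 0.30 (adjusted p = 0.116). In the retinoic acid pathway 5 of 17 tested genes rose and 1 fell, with a median of 0.17, beside 17.1% and 6.40% of all probes and a median of 0.29. Those that rose included Crabp2 and Crabp1, which carry retinoic acid inside the cell, by 1.39 ± 0.21 (adjusted p = 0.021) and 1.28 ± 0.32 (adjusted p = 0.0397), and the receptor Rxrg, by 0.87 ± 0.22 (adjusted p = 0.0401). Rara, the receptor that binds retinoic acid, fell by 1.42 ± 0.18 at its brightest probe (adjusted p = 0.0164) and had -0.64 at its other probe.

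The next counts stand against 17.1% higher and 6.4% lower over all probes tested. Of 10 Trithorax-type activators 0 rose and 1 fell: Ash2l, a core subunit of the complex that writes methyl marks on histone H3, had a difference of -1.00 ± 0.19 (adjusted p = 0.0279). Of 16 tested Polycomb-type repressors 0 rose and 0 fell in limma, while 4 had an unadjusted p under 0.05, and the median was -0.35: Bmi1 had -0.99 ± 0.28 (adjusted p = 0.0515), Phf19 1.80 ± 0.52 (adjusted p = 0.053) and Jarid2 -0.86 ± 0.29 (adjusted p = 0.074). Among the Cdx, Evx and other axial genes 4 of 9 were tested and Pdx1, which lies in the ParaHox cluster, rose by 2.24 ± 0.50 (adjusted p = 0.0331), while Cdx1, Cdx2, Evx1 and Evx2 were well above background on 0 arrays. Of the factors that tell limbs apart, the hindlimb gene Tbx4 was detected on all 6 arrays (-0.61 ± 0.19, adjusted p = 0.0621), the forelimb gene Tbx5 on 1 Adult and 2 Young arrays, and the hindlimb gene Pitx1 on 0 arrays.

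Cell type markers were read beside these values. Their counts stand against 17.1% higher and 6.4% lower over all probes tested. In level group 4 those shares were 8.52% and 15.2%, and in group 1 they were 27.3% and 0.761%. All 12 satellite cell markers were well above background on all 6 arrays, 5 fell and 0 rose, and their summed scaled signal was 120 to 156 on Adult and 166 to 184 on Young arrays. Chodl, the brightest probe in that sum, had -0.15 ± 0.19. Markers of mural cells had 5 of 10 higher and 1 lower in Adult, with sums of 74.6 to 80.9 on Adult and 66.3 to 84.1 on Young arrays. Kcnj8, Abcc9, Pdgfrb, Higd1b and Rgs5 rose by 3.58, 2.37, 2.13, 2.00 and 1.87 (log2), Acta2 fell by 2.10, and Notch3, the brightest probe in the sum, had -0.15 ± 0.20. Fibro-adipogenic progenitor markers had 2 of 13 tested higher and 1 lower, with sums of 39.2 to 55.8 on Adult and 97.1 to 122 on Young arrays. Col3a1, the brightest probe in the sum, had -1.13 ± 0.29, and the defining gene Pdgfra was well above background on no array. Leukocyte markers had 3 of 10 higher and 0 lower, a median difference of 0.60, and sums of 378 to 402 on Adult and 219 to 425 on Young arrays. Nearly all of each sum was the brightest Itgam probe, so the sums say little about the other markers. That probe read 8.61, 8.51 and 8.58 on Adult, against 8.70, 7.72 and 8.12 on Young arrays (0.39 ± 0.29). The dimmer Itgam probes had 1.46, and 1 of its 3 probes passed the threshold. Tenocyte markers had 0 of 4 tested higher and 1 lower, with sums of 1.97 to 4.11 on Adult and 4.69 to 9.49 on Young arrays. Myofibre markers had 1 of 10 higher and 4 lower, and endothelial and Schwann cell markers had 0 called of 10 and 5. The part of other cells in the Hox differences was not tested, and fewer cells of a type cannot be told apart from less RNA per cell.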

How the data were processed

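Each sample was hybridised to 1 array of 62976 spots, of which 3671 were controls. The deposited intensity values were background-subtracted and detrended signals made with Feature Extraction, per the file headers, with no scaling between arrays. The deposited series matrix held log2 values, used as an alternative; each column had a median of 7.56 and differed by at most 0.000106 from normexp (offset 50) with quantile normalization, so its scale and centring are known from the files. All 6 arrays lay on 1 slide, so slide and scan could not be batches; the row on the slide was tried as a block. The number of arrays limits the precision.

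Outlier spots were left out, log2 processed signals of a probe's spots were averaged, and each array's 75th percentile over all probes was subtracted. A probe was called well above background where most of its spots were, and probes so called on at least 3 arrays with values on all 6 were tested with limma 3.58.1 in R 4.3.3 (lmFit, eBayes), without covariates, with Benjamini-Hochberg adjustment over all 48375 probes at 0.05. A gene was called by its probe with the highest mean. The fit was tested on simulated data. Samples sharing a replicate number were not paired: their deviations correlated by -0.01, -0.09 and -0.13. Members, lists and tests were chosen with earlier results of these data known. 1 Hox gene and 1 probe sequence are not reported here, and that gene stays in the counts; values by array were given for genes called or well above background on all 6 arrays, and for Hoxd3 and Hoxd10, chosen after their values were seen, and of each list up to 4 genes with the smallest p. The marker lists were not held to that limit, and for some sums the brightest probe was named. All 43 Hox probes matched RefSeq by accession to the same symbol. P-values measure the spread between these samples.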

Additional observations from a re-analysis of the deposited data

Results flagged for a closer look

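The Hoxb1 probe has 10 spots on the array, and its average was not well above background on any array. Spots that the scanner software marked as outliers were left out of that average, and 2 of them were themselves well above background: 1 on the array of Adult replicate 1, with a processed signal of 35.6, and 1 on that of Young replicate 2, with 76.5. Each was 1 spot of 10, in 1 sample of each group.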

How the results depend on the processing

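Over all probes, 11345 passed the threshold, and under other settings 7068 (quantile normalization), 17025 (each array minus its median), 6305 (cyclic loess), 17483 (normexp), 6532 (array row as a block) and 0 (replicate block, with 18039 at an unadjusted p under 0.05). The Hox genes higher in Adult, 3 as reported, numbered 0 under quantile scaling, 0 on the deposited log2 values, 0 among probes well above background on all 6 arrays, 0 with the replicate block (6 Hox genes at an unadjusted p under 0.05), 1 with cyclic loess and 5 with normexp. Those lower in Adult, 0 as reported, numbered 2, 3 and 1 in the first 3 of these settings, 2 with cyclic loess, 3 with normexp, 11 with each array minus its median and 1 with trend and robust moderation. The median Hox difference of 0.09 became -0.27 with quantile normalization, -0.45 with each array minus its median, -0.20 with cyclic loess and -0.21 among probes well above background on all 6 arrays. Leaving out 1 sample at a time gave 388 to 10337 probes, 0 to 3 Hox genes higher and 0 lower, and medians of -0.12 to 0.17; the limma fit then assumes the same spread in both groups. The replicate block followed numbers that do not pair the samples. Counting spots whose signal was positive and significant, Hox genes detected were 37, 37 and 36 on Adult and 35, 33 and 34 on Young arrays. The slide could not be run as a block. Of 626 values under other settings, for single genes and for the detection counts of the 6 arrays, 539 were kept. For a gene this meant the same direction and side of the threshold, and for a detection count a similar number. As 30 of the 33 tested genes were not called as reported, most gene values were kept by staying uncalled. The values not kept were 30 newly called, 23 that lost a call and 34 that changed sign. What moves these counts was not tested. Values at background are upper limits, so differences of dim genes such as Hoxd1 and Hoxd13 depend on the background correction.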
